A study of Mus musculus with 12 samples.

Results

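IMDP cells and IMSP cells are a pair of sorted populations of mouse chronic myeloid leukaemia (CML) stem and progenitor cells that were recovered from imatinib-treated mice. They were compared here across all genes in the 6 imatinib libraries (IMDP replicates 1 to 3 and IMSP replicates 1 to 3) of the 12 libraries in the series. Both populations were BCR-ABL1+ Kit+ Sca-1+ Lineage- (KSL) and CD27+, and they differed in the G0 marker (G0M), which was positive in IMDP cells and negative in IMSP cells. The other 6 libraries are the same populations from vehicle-treated mice, DP cells (G0M+) and SP cells (G0M-).

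All mice were C57BL/6. Bone marrow of 5-fluorouracil-treated donors carrying G0M, an mVenus protein fused to a mutant p27 that was inserted at Rosa26 and switched on in blood cells by Vav1-Cre, was infected with an MSCV retrovirus encoding BCR-ABL1 and GFP. The infected cells were transplanted with carrier marrow into lethally irradiated wild-type recipients, which then received imatinib or vehicle once daily by oral gavage. Each library held 100 sorted cells. The study describes these populations in bone marrow, and its flow cytometry preparation names both bone marrow and spleen. The animal description gives young adult female mice for all experiments, and the labels give no age. The labels do not say whether replicates came from separate mice, so p-values measure the spread between these samples. BCR-ABL1 is a constitutively active tyrosine kinase that drives proliferation of myeloid progenitors through STAT5, MYC and PI3K signalling, and imatinib blocks its ATP site. Leukaemia stem cells in G0 can outlast the drug in patients and in mice. In G0 the genes for DNA replication and mitosis are silenced, largely by the DREAM repressor complex and hypophosphorylated RB, while p27, a CDK inhibitor encoded by Cdkn1b, accumulates as protein.

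The values are RPKM, read counts divided by transcript length and by the mapped reads of the library. Mapped reads are not given and were estimated from the values and the lengths of the longest annotated transcripts. By this estimate IMDP libraries held 12.92, 14.88 and 16.94 M mapped reads (M, mega) and IMSP libraries 17.57, 11.37 and 13.48 M. In these libraries 13529 to 14537 genes were above 0. The listed features took 25.9 to 31.1% of the estimated reads in IMDP libraries and 32.6 to 37.1% in IMSP libraries, without overlap. Library correlations across genes were 0.889 to 0.93 within IMDP, 0.91 to 0.954 within IMSP and 0.774 to 0.879 between them. Replicate 3 of both populations stood apart. Ddx3y, a Y-linked gene, was at 5.49 RPKM in IMDP replicate 3 and 4.93 in IMSP replicate 3, while the other 4 imatinib libraries had at most 4 reads of it. Xist was listed at 0 in every library, also in those without Y-linked RNA, so its value does not inform on sex. The Y-linked RNA goes against the stated female sex, so the main results are also given without replicate 3 of both populations. Cdkn1b itself was at 7.76, 5.9 and 6.33 RPKM in IMDP libraries and 6.63, 9.55 and 6.48 in IMSP libraries, which overlapped (log2 fold change -0.16, limma adjusted p = 0.607, turning to 0.11 after the scaling described next). The G0M reporter is a p27 fusion protein, and its RNA could not be told apart from that of Cdkn1b.

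The main question of the comparison was which transcripts separate G0M+ from G0M- leukaemic KSL cells once both have been exposed to the drug. Of 10072 genes tested with limma on log2(RPKM + 0.1), 2581 (25.6%) differed at an adjusted p of at most 0.05. Of these, 239 were higher and 2342 lower in IMDP cells. The deposited values of IMDP libraries were lower as a whole, with a median log2 fold change of -0.25 over all genes. When every library was scaled to the same median, a relative shift of 0.27 on the log2 scale, the calls became 647 higher and 940 lower. A gene is therefore said below to have risen or fallen only where it was called under both scalings. By that rule 239 genes (2.37%) rose and 940 (9.33%) fell in IMDP cells. The counts given below for each gene list are to be read against these shares. Without replicate 3 of both populations 46 rose and 289 fell. Of the 1179 genes, 321 kept their call without these 2 libraries. All 1179 kept their direction, but they were picked in a fit that shares the remaining libraries, so this gives little support. Of single libraries, leaving out IMSP replicate 1 took the count from 1179 to 442, IMDP replicate 2 to 532, IMDP replicate 3 to 773 and IMSP replicate 3 to 631. Leaving out IMDP replicate 1 gave 1019 and IMSP replicate 2 gave 1610. The 239 rises became 50 without IMSP replicate 1, 85 without IMDP replicate 2 and 513 without IMSP replicate 2. The lower share of reads on listed features moved with the lower IMDP values, and its part in them was not tested. In bulk samples fewer cells that express a gene and less RNA per cell cannot be told apart.

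**Figure D1:**
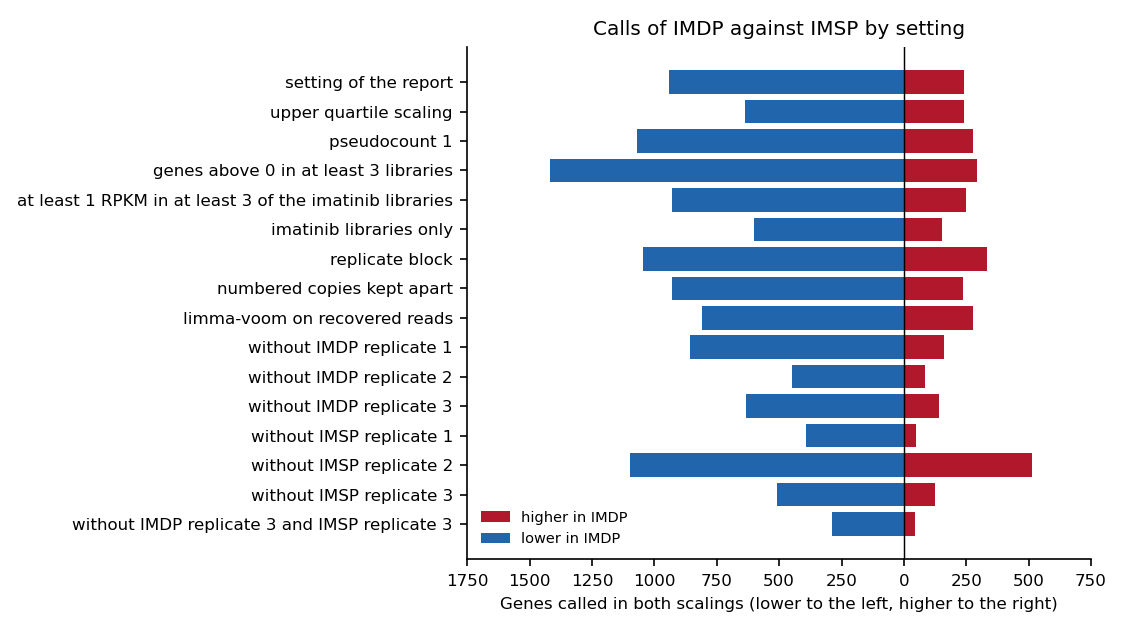
Number of genes called in both scalings under each way of processing the values, with genes lower in IMDP cells to the left of 0 and genes higher to the right. In the setting of the report 239 genes rose and 940 fell, and without replicate 3 of both populations 46 rose and 289 fell.

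The largest falls were of dividing-cell genes, and 111 of the 160 genes that fell past 4-fold were in the cell cycle lists. Of 80 tested genes of the mitotic spindle and of cell division, 77 fell, 0 rose, and in all 80 the 3 IMDP libraries lay below the 3 IMSP libraries (32.8% of all genes did). Their median log2 fold change was -3.16 (-2.89 scaled, against 0.02 over all genes). The falls were present in each library pair, with scaled medians of -2.26, -3.15 and -2.90 in pairs 1, 2 and 3. Leaving out any single imatinib library gave 75 to 78 falls and leaving out replicate 3 of both populations gave 73. Under vehicle 68 of the 80 were lower in DP than in SP cells (1.97% of all genes were).

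Ube2c, the E2 enzyme of the anaphase-promoting complex (chr2:164769898-164778822, plus strand), had the largest fall of the genes outside the histone list that passed the naming rule. It was at 2.24, 1.44 and 0.444 RPKM in IMDP libraries and 83.6, 76.8 and 57.2 RPKM in IMSP libraries. Every IMDP library lay far below every IMSP library, with a log2 fold change of -5.84 ± 0.69 (SE, limma adjusted p = 0.000262). Ccnb2, a B-type cyclin of mitotic entry (chr9:70407692-70421547, minus strand), was at 2.71, 0.829 and 0.843 RPKM in IMDP libraries and 21.6, 38.4 and 20.6 RPKM in IMSP libraries. IMDP replicate 1 was the highest of its group for this cyclin but still well below the lowest IMSP library (log2 fold change -4.26 ± 0.45, limma adjusted p = 0.000169). Plk1, the polo-like kinase of centrosome maturation and spindle assembly, was at 1.05, 1.43 and 0.507 RPKM against 22.1, 27.1 and 17.2 RPKM. Its groups did not overlap (log2 fold change -4.42 ± 0.49, limma adjusted p = 0.000224). Hmmr, a spindle-assembly factor, and Aspm, a spindle-pole protein, fell by 4.97 and 4.45 on the log2 scale. Mki67, the proliferation antigen Ki-67, was at 10.1, 7.18 and 7.21 RPKM in IMDP libraries and 58.3, 70.6 and 54.5 RPKM in IMSP libraries, so its RNA was lower but not absent (log2 fold change -2.90 ± 0.23, limma adjusted p = 3.6e-05). Nusap1, a microtubule-binding spindle protein, fell by 4.66. The falls of Ube2c, Ccnb2, Plk1, Hmmr, Aspm and Mki67 held without each library and without replicate 3 of both populations.

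The promoters of these genes share short motifs of the cell cycle class. NF-Y binds CCAAT, and TTTGAA is a core of the CHR element that the DREAM and MuvB complexes bind. In RefSeq promoters from 250 bases before to 50 after the start (GRCm38.p6), CCAAT stood on either strand in 50 of 69 mitosis promoters (72.5%), in 53.2% of the genes that fell, in 38.5% of those that rose and in 39.7% of all tested genes. TTTGAA stood in 45 of 69 mitosis promoters (65.2%), in 26.3% of the genes that fell, in 7.29% of those that rose and in 12.3% of all. Both together were in 53.6% of mitosis promoters and 5.43% of all. The promoters of 3 genes are shown from the 120 bases before the start, 5′ to 3′ on the gene's strand, chosen after the matches were seen, as examples of genes among the 12 largest falls whose promoters hold these letters. Capitals mark CCAAT or TTTGAA, or their reverse complements ATTGG and TTCAAA.
Ccnb2, chr9:70421555-70421674, minus strand: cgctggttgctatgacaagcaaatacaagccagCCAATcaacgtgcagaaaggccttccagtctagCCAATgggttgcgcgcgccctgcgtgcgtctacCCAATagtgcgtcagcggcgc
Ube2c, chr2:164769809-164769928, plus strand: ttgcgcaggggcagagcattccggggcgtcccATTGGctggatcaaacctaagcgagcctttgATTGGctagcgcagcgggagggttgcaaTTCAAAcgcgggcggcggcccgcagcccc
Arhgap19, chr19:41802085-41802204, minus strand: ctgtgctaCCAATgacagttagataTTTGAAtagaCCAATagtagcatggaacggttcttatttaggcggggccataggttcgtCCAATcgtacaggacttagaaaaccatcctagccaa
Ccnb2 carries 3 CCAAT boxes spaced at 87, 54 and 21 bases before the start, and Ube2c carries 2 reversed ones at 88 and 57 with a reversed TTTGAA at 29. Arhgap19, a RhoA GTPase-activating protein of cytokinesis, carries 3 CCAAT boxes and 1 TTTGAA at 95 and fell by 4.43 on the log2 scale. A match is a description of the letters and not of binding.

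**Figure D2:**
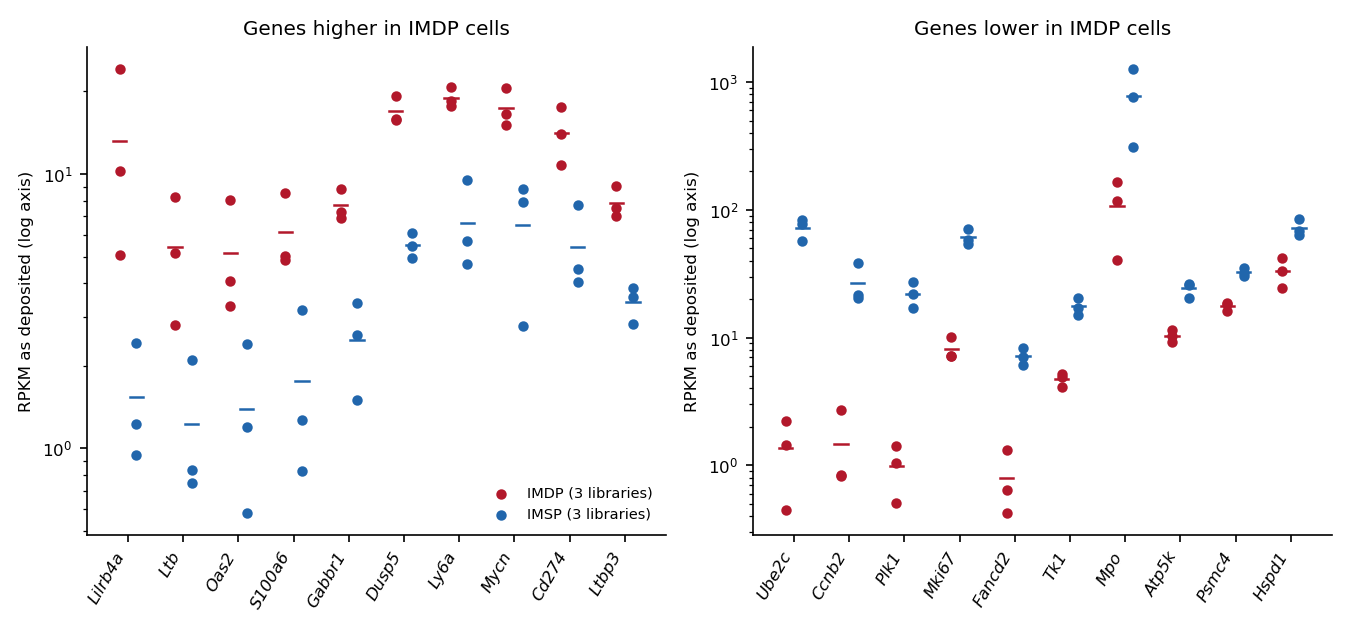
RPKM of 10 genes higher in IMDP cells (left) and 10 lower (right) in the 3 IMDP and 3 IMSP libraries on a log axis, 1 point per library, with a bar at each group's mean. For Ube2c, Ccnb2 and Plk1 the 3 IMDP points lie far below the 3 IMSP points, for Cd274 and Mycn they lie above, and for Mpo the spread within each group is wide.

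Histone genes, which are transcribed in S phase, also fell. Of 54 tested replication-dependent histone genes, 47 fell and 0 rose, with a median log2 fold change of -3.76 (-3.49 scaled). Pair medians were -3.61, -3.13 and -3.81 on the scaled values. Hist1h2bc, a replication-linked H2B gene, was at 5.0, 4.34 and 3.51 RPKM in IMDP libraries and 35.4, 26.9 and 34.8 RPKM in IMSP libraries, without overlap (log2 fold change -2.89, limma adjusted p = 3.76e-05). Leaving out single libraries gave 40 to 45 falls, and 37 were called lower without replicate 3 of both populations. Histone genes are near-identical copies, so single members are uncertain. Under vehicle 28 of the 54 were lower in DP cells.

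Lists of S-phase genes had medians nearer 0. Of 52 DNA replication genes, 21 fell (scaled median -0.44), of 29 nucleotide synthesis genes 11 fell (-0.47), of 36 recombination and Fanconi repair genes 18 fell (-0.52), and of 21 G1 cyclin, CDK and RB family genes 5 fell (-0.17). No gene of these 4 lists rose. Tk1, the thymidine kinase of S phase, was at 5.22, 4.96 and 4.1 RPKM against 17.1, 20.6 and 15.04 RPKM. The IMDP libraries were close to each other and below all IMSP libraries (log2 fold change -1.86 ± 0.15, limma adjusted p = 3.95e-05). Dbf4, the activating subunit of the origin-firing kinase CDC7, was at 2.97, 1.48 and 2.24 RPKM against 10.3, 13.5 and 10.0 RPKM (log2 fold change -2.33, limma adjusted p = 0.000138). Fancd2, a crosslink repair protein, fell by 3.13 on the log2 scale. E2f8, a repressive E2F factor, fell by 2.13, a call that ended without replicate 3 of both populations. Pcna, the sliding clamp, was at 55.8, 33.7 and 36.4 RPKM in IMDP libraries and 75.9, 68.8 and 64.3 RPKM in IMSP libraries, a smaller difference (log2 fold change -0.76, limma adjusted p = 0.00937) whose call ended with the imatinib libraries alone and without IMDP replicate 2, IMDP replicate 3, IMSP replicate 1 or IMSP replicate 3. Cdc6, the origin-licensing factor, had a log2 fold change of -0.41 (limma adjusted p = 0.351), and Mcm5, a subunit of the replicative helicase, one of -0.57 that was not called after scaling (-0.30, limma adjusted p = 0.184). Without replicate 3 of both populations 6 replication, 2 nucleotide, 7 repair and 0 G1 genes were called lower. Without single libraries the replication falls ranged from 9 (IMDP replicate 2) to 27 (IMDP replicate 1), with 11 without IMSP replicate 1, 12 without IMSP replicate 3 and 13 without IMDP replicate 3. The nucleotide falls numbered 5 without IMSP replicate 1 and 6 without IMDP replicate 2, the repair falls 11 without IMSP replicate 1, and the G1 falls 1 without IMDP replicate 3 and 2 without IMDP replicate 2, IMSP replicate 1 or IMSP replicate 3. The E2F letters TTTGGCGC or TTTCCCGC stood in 13 of 43 replication promoters (30.2%) and in 3.35% of all.

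**Figure D3:**
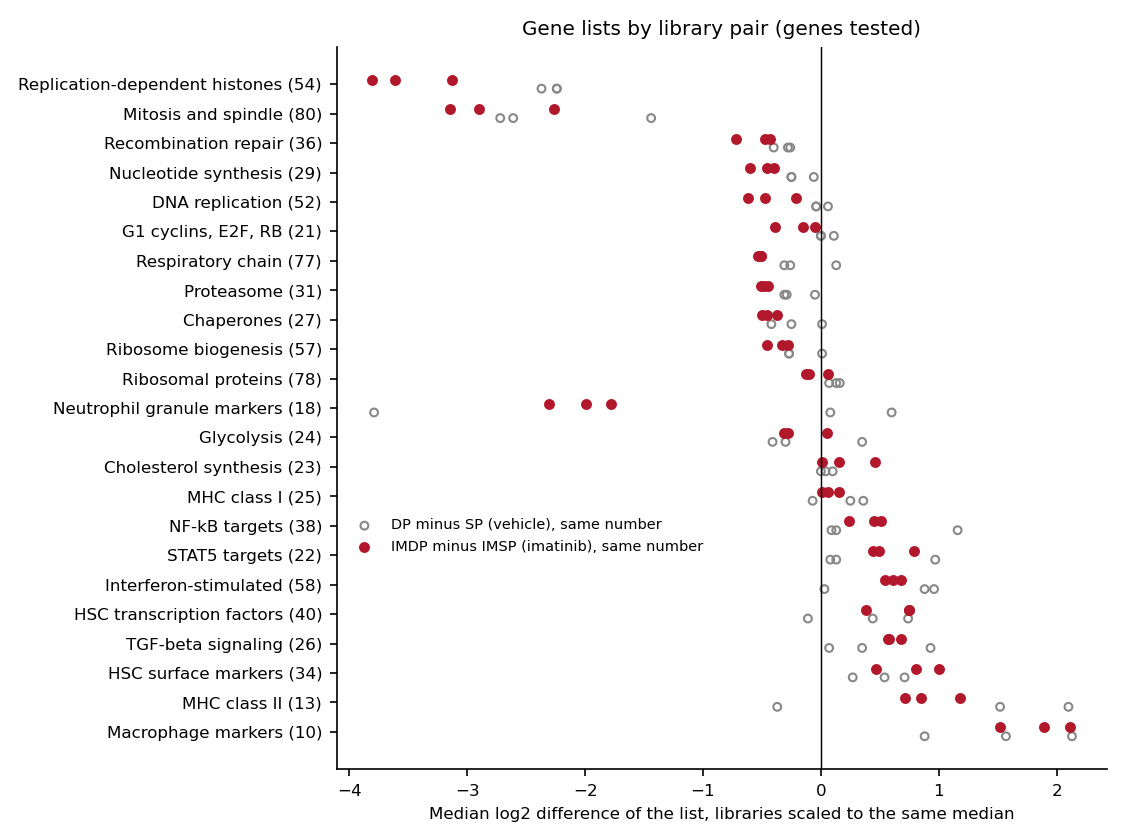
Median log2 difference of each gene list, with libraries scaled to the same median, between IMDP and IMSP libraries of the same number (filled points, 3 per list) and between DP and SP libraries of the same number (open points). Under imatinib the mitosis list lies between -3.15 and -2.26 and the histone list between -3.81 and -3.13, the respiratory chain and proteasome lists lie near -0.5, and the interferon-stimulated and HSC surface lists lie above 0 in each pair.

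Of 77 nuclear genes for the respiratory chain and ATP synthase, 32 fell and 0 rose, with a median log2 fold change of -0.78 (-0.51 scaled). Of the 77, 70 had non-overlapping lower IMDP libraries, as did 32.8% of all genes. Pair medians were close to each other at -0.51, -0.53 and -0.51. Atp5k, a subunit of ATP synthase, was at 9.28, 10.4 and 11.5 RPKM against 26.5, 25.9 and 20.3 RPKM, with a log2 fold change of -1.21 ± 0.16 (SE, limma adjusted p = 0.000483) that held without each library. Atp5b, the catalytic beta subunit, was at 112, 80.1 and 91.0 RPKM against 183, 156 and 143 RPKM (log2 fold change -0.77, limma adjusted p = 0.00617), and its call ended without IMDP replicate 2 or IMSP replicate 1. The count of falling genes depended on single libraries. It was 20 with upper quartile scaling, 5 without IMSP replicate 1, 8 without IMDP replicate 2, 14 without IMSP replicate 3, 15 without IMDP replicate 3 and 1 without replicate 3 of both populations, while the median without those 2 was -0.83. Under vehicle 0 of the 77 were called, with a scaled median of -0.17, and the difference between imatinib and vehicle was not called for any gene.

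Proteasome subunits, which degrade ubiquitinated proteins, showed 19 falls among 31 genes (scaled median -0.50, pairs -0.45, -0.48 and -0.51). Psmc4, a base ATPase of the proteasome, was at 18.3, 16.2 and 18.8 RPKM in IMDP libraries and 35.3, 32.2 and 30.6 RPKM in IMSP libraries, which did not overlap (log2 fold change -0.88 ± 0.12, limma adjusted p = 0.000654). It and Psmc1, another of its ATPases, held without each library, but the list count was 5 without IMSP replicate 1, 6 without IMDP replicate 2, 8 without IMDP replicate 3, 8 without IMSP replicate 3 and 3 without replicate 3 of both populations. Heat shock and chaperonin genes had 12 falls among 27 genes (scaled median -0.40). Hspd1, the mitochondrial chaperonin, was at 42.0, 24.3 and 33.5 RPKM against 84.5, 64.1 and 68.4 RPKM (log2 fold change -1.15, limma adjusted p = 0.0104), and its call ended without any of IMDP replicates 2 and 3 and IMSP replicates 1 and 3. The chaperone count was 1 without IMSP replicate 1, 3 without IMSP replicate 3, 4 without IMDP replicate 2, 5 without IMDP replicate 3 and 0 without replicate 3 of both populations. Ribosome biogenesis had 7 falls among 57 genes (12.3%, near the 9.33% of all genes, scaled median -0.36). The count was 19 with the replicate number as a block, and 0 without IMDP replicate 2, IMSP replicate 1 or replicate 3 of both populations. It was 1 without IMSP replicate 3 and 17 without IMSP replicate 2. Cytosolic ribosomal proteins had 0 of 78 genes called in both scalings (limma, 2 fell with the block, 7 without IMSP replicate 2 and 1 without IMDP replicate 1, scaled median -0.05). Glycolysis genes had 1 rise, Aldoc, and 2 falls, Ldha and Slc16a1, among 24 (scaled median -0.11), with 2 rises and 5 falls without IMSP replicate 2 and none of either without IMDP replicate 2, IMSP replicate 3 or replicate 3 of both populations. Of 23 cholesterol genes 0 were called (scaled median 0.16, limma, 0 in all but the fit without IMSP replicate 2, which gave 1). Ldha, lactate dehydrogenase A, was at 189, 127 and 142 RPKM against 321, 257 and 279 RPKM (log2 fold change -0.92, limma adjusted p = 0.0148), and its call ended with upper quartile scaling and without any of IMDP replicates 2 and 3 and IMSP replicates 1 and 3.

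Most tested neutrophil and monocyte granule genes had lower values in IMDP libraries (15 of 18 below 0 after scaling), but they varied widely and few passed. Hp, haptoglobin of granulocytes, was at 1.09, 0.3 and 2.81 RPKM in IMDP libraries and 22.8, 10.1 and 37.1 RPKM in IMSP libraries. No IMDP library reached the lowest IMSP library (log2 fold change -4.21 ± 0.98, limma adjusted p = 0.0119), and the call ended with limma-voom, without IMDP replicates 1 or 2 and without IMSP replicates 1 or 3. Mpo, the myeloperoxidase of primary granules, was at 117, 40.2 and 167 RPKM against 1262, 312 and 764 RPKM. Its groups did not overlap and differed by -2.86 on the log2 scale, but the limma adjusted p was 0.0506 (0.0414 with the replicate block, which after scaling did not pass). Elane, neutrophil elastase, differed by -3.18 (limma adjusted p = 0.0815) and Ctsg, cathepsin G, by -2.60 (limma adjusted p = 0.0601, and 0.042 with the block). Of 25 listed markers 18 were tested, of which 2 fell (11.1%, against 9.33% of all genes), Hp and Ms4a3, and 0 rose (scaled median -1.87). Not every marker was lower. The key marker Ngp was at most 0.245 RPKM in the imatinib libraries. The key marker S100a8 was at 0, 1.37 and 0.753 RPKM in IMDP and 3.34, 1.12 and 1.14 RPKM in IMSP libraries, which overlapped. Csf3r also overlapped, at 15.5, 9.64 and 15.9 RPKM against 14.9, 8.89 and 11.2 RPKM. The call of Ms4a3 ended with the replicate block. Summed over the 25, IMDP libraries held 153 to 411 RPKM and IMSP libraries 678 to 2685 RPKM. Under vehicle the pairs of DP and SP libraries went different ways, with scaled medians of 0.6, -3.79 and 0.08, and 0 markers were called in both scalings (limma). The list count was 0 without IMDP replicate 1, IMDP replicate 2, IMSP replicate 1, IMSP replicate 3 or replicate 3 of both populations, and 1 without IMDP replicate 3. The part of RNA from cells that express granule genes in the other falls was not tested.

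The sort markers Kit and CD27 did not separate the populations. Kit was at 39.8, 23.2 and 36.7 RPKM in IMDP and 30.8, 25.2 and 23.4 RPKM in IMSP libraries, and Cd27 at 18.6, 12.2 and 21.4 RPKM against 15.5, 12.4 and 15.4 RPKM, both overlapping (limma adjusted p = 0.386 for each). Ly6a, which encodes Sca-1, was at 17.8, 18.4 and 20.8 RPKM in IMDP libraries and 4.71, 9.48 and 5.7 RPKM in IMSP libraries. All IMDP libraries were above all IMSP libraries (log2 fold change 1.56 ± 0.40, limma adjusted p = 0.017), although both populations were sorted as Sca-1+. Its call ended without IMDP replicate 2, IMDP replicate 3 or IMSP replicate 1, and Ly6 genes are similar in sequence. Stem cell surface genes had 3 rises among 34 (scaled median 0.71, 6 rises with the block, 0 without replicate 3 of both populations), namely Ly6a, Ctla2a, a cathepsin inhibitor, and its close copy Ctla2b. That count was 0 without IMSP replicate 1, 1 without IMDP replicate 2, IMDP replicate 3 or IMSP replicate 3, 2 without IMDP replicate 1 and 12 without IMSP replicate 2. Procr, the endothelial protein C receptor EPCR, differed by 1.86 on the log2 scale without passing (limma adjusted p = 0.0534), but passed in both scalings with the replicate block (limma adjusted p = 0.0347).

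Stem cell transcription factors had 2 rises among 40 (5%, against 2.37% of all genes), Mycn and Tal1. The scaled median was 0.62, and 35 of the 40 were above 0 after scaling. There were 5 rises with the block and 1 without replicate 3 of both populations. Mycn, the MYC family member, was at 20.6, 16.5 and 15.1 RPKM in IMDP libraries and 7.89, 8.84 and 2.8 RPKM in IMSP libraries, without overlap. Its log2 fold change of 1.55 ± 0.38 (SE, limma adjusted p = 0.0143) held without each library and without replicate 3 of both populations. Myc did not follow it, with 39.8, 13.8 and 38.5 RPKM against 51.4, 22.04 and 44.1 RPKM (log2 fold change -0.41, limma adjusted p = 0.486, 0.0871 on the log2 scale without IMDP replicate 2). Tal1, an erythroid and stem cell factor, had a log2 fold change of 0.73 (limma adjusted p = 0.0469), and its call ended with the imatinib libraries alone and without any library but IMSP replicate 2. The list count was 1 without any single library except IMSP replicate 2, and 9 without that one.

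Of 58 tested interferon-stimulated genes 9 rose (15.5%, against 2.37% of all genes) and 0 fell, the scaled median was 0.57 and 51 of the 58 were above 0. Oas2, a 2′-5′ oligoadenylate synthetase of the antiviral response, was at 3.29, 8.02 and 4.07 RPKM in IMDP libraries and 0.581, 2.39 and 1.19 RPKM in IMSP libraries, without overlap (log2 fold change 1.90 ± 0.50, limma adjusted p = 0.018). Isg20, an interferon-induced exonuclease, was at 4.32, 3.6 and 2.5 RPKM against 0.921, 2.11 and 0.994 RPKM (log2 fold change 1.37, limma adjusted p = 0.0163). Tgtp1, a T cell GTPase induced by interferon gamma whose copy Tgtp2 shares reads, was at 7.28, 5.34 and 4.45 RPKM against 3.5, 1.82 and 0.792 RPKM (log2 fold change 1.63, limma adjusted p = 0.0443). The calls of Oas2 and Isg20 ended without IMDP replicate 2 or IMSP replicate 1, that of Oas2 also without IMSP replicate 3, that of Tgtp1 with limma-voom and without any library but IMSP replicate 1, and those of all 3 without replicate 3 of both populations. The list count was 0 without IMDP replicate 2, 1 without IMSP replicate 1 or IMSP replicate 3, 3 without IMDP replicate 1, 5 without IMDP replicate 3, 12 without IMSP replicate 2 and 0 without replicate 3 of both populations. Under vehicle 0 of the 58 were called with limma (0.288% of all genes were higher in DP), with a scaled median of 0.60.

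The letters GAAA followed by any 2 bases and GAAA, a core of the interferon-stimulated response element, stood on either strand in 23 of 46 interferon-stimulated gene promoters (50%), in 6.25% of the genes that rose and in 3.18% of all. Shown are the 120 bases before the start of Tgtp1 and of Oas3, which was chosen after its values were seen and had a log2 fold change of 1.07 (limma adjusted p = 0.0261). Its call ended without IMDP replicates 1 or 2, IMSP replicates 1 or 3 or replicate 3 of both populations. Capitals mark these letters, at 75 bases before the start in Oas3 and at 77 in Tgtp1 (RefSeq, GRCm38.p6).
Oas3, chr5:120777660-120777779, minus strand: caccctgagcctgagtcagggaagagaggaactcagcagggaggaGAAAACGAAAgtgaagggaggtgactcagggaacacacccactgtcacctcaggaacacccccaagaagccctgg
Tgtp1, chr11:48992247-48992366, minus strand: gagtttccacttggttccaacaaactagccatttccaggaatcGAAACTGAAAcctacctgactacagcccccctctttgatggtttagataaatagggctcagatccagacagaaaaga

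Cd274 (PD-L1, chr19:29367455-29388095, plus strand), the ligand of the T cell inhibitory receptor PD-1, rose in IMDP cells. It was at 10.8, 17.5 and 14.03 RPKM in IMDP libraries and 4.52, 7.74 and 4.04 RPKM in IMSP libraries, and every IMDP library was above every IMSP library (6.21% of all genes were). The log2 fold change was 1.39 ± 0.32 (SE, limma adjusted p = 0.0108) and 1.66 after scaling (limma adjusted p = 0.00881). It was lost without IMSP replicate 1 (limma adjusted p = 0.0525) and without replicate 3 of both populations (log2 fold change 1.2, limma adjusted p = 0.0805). Under vehicle the log2 fold change was 1.01 (limma adjusted p = 0.17). Cd274 was the 1 called gene of 14 tested checkpoint and phagocytosis-inhibiting ligands (scaled median 0.64, 2 rises with the block). Cd47, the macrophage "do not eat me" signal, differed by -0.41 without passing (limma adjusted p = 0.0734, and 0.0282 with the block).

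MHC class I genes had 1 rise and 1 fall among 25 (scaled median 0.11). H2-Q6, a non-classical class I gene of a multigene family, was at 16.2, 13.0 and 12.2 RPKM in IMDP libraries and 2.55, 5.92 and 0 RPKM in IMSP libraries, so its log2 fold change of 3.56 (limma adjusted p = 0.0331) leans on IMSP replicate 3. It was 1.87 without replicate 3 of both populations (limma adjusted p = 0.0371). The call ended with limma-voom, with the imatinib libraries alone, without IMDP replicates 1, 2 or 3 and without IMSP replicate 1. H2-D1, a classical class I gene, was at 154, 113 and 105 RPKM against 149, 147 and 123 RPKM, which overlapped (log2 fold change -0.19, 0.085 after scaling). Calr, the calreticulin of peptide loading, was lower (log2 fold change -1.41, limma adjusted p = 0.0194), but the call ended with upper quartile scaling, with limma-voom and without any library but IMSP replicate 2. MHC class II genes had 1 fall, Ifi30, a lysosomal thiol reductase, among 13 (scaled median 0.94), a call that ended in these settings and with the imatinib libraries alone. Cd74, the invariant chain, was at 25.4, 7.08 and 7.47 RPKM against 1.25, 2.67 and 2.99 RPKM, without overlap, but did not pass (log2 fold change 2.30, limma adjusted p = 0.0605).

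Cytokine and survival signalling genes gave single rises. Dusp5, a phosphatase of ERK in the nucleus, was at 15.7, 15.8 and 19.3 RPKM in IMDP libraries and 5.47, 6.09 and 4.94 RPKM in IMSP libraries. The 2 groups were narrow and far apart (log2 fold change 1.61 ± 0.34, limma adjusted p = 0.00807), and the call held without each library and ended without replicate 3 of both populations (limma adjusted p = 0.0683). Pim2, a survival kinase downstream of STAT5, was at 9.14, 10.1 and 12.3 RPKM against 3.79, 4.57 and 3.05 RPKM (log2 fold change 1.45, limma adjusted p = 0.0259). Its call ended without IMDP replicates 2 or 3 or IMSP replicates 1 or 3. They were the 2 rises among 22 STAT5 target and SOCS feedback genes (1 without IMDP replicate 2, IMSP replicate 1, IMSP replicate 3 or replicate 3 of both populations, 4 without IMSP replicate 2), of which 21 were above 0 after scaling (median 0.51). Cish, a STAT5-induced inhibitor, was at 6.13, 17.98 and 7.77 RPKM against 2.33, 8.93 and 2.16 RPKM (limma adjusted p = 0.141).

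NF-kB subunits, regulators and targets had 2 rises among 38 (5.26%, against 2.37% of all genes). The scaled median was 0.42, and there were 4 rises with the block. Ltb, lymphotoxin beta, was at 5.16, 8.23 and 2.8 RPKM in IMDP libraries and 0.831, 2.09 and 0.745 RPKM in IMSP libraries, without overlap (log2 fold change 2.07 ± 0.52, limma adjusted p = 0.0162). Vcam1, an adhesion receptor also of marrow macrophages, was at 2.35, 3.5 and 1.35 RPKM against 0.0837, 0 and 0.306 RPKM (log2 fold change 3.58, limma adjusted p = 0.0173). Vcam1 is also in the adhesion and macrophage lists. Both calls ended without IMDP replicate 2, IMSP replicate 1 or replicate 3 of both populations, that of Ltb also without IMSP replicate 3 and that of Vcam1 with limma-voom, and the list count was 0 without IMDP replicate 2, IMSP replicate 1 or replicate 3 of both populations, 1 without IMSP replicate 3, 3 without IMSP replicate 2 and 4 without IMDP replicate 3. Nfkbia, the NF-kB inhibitor and target, differed by -0.38 (limma adjusted p = 0.51). Toll-like and IL-1 receptor signalling genes had 1 rise, Sigirr, and 1 fall, Hsp90b1, among 30 (scaled median 0.13). Both calls ended without replicate 3 of both populations and without any single library but IMSP replicate 2, and without that one 3 genes of the list fell. TGF-beta signalling and latency genes had 1 rise among 26 (scaled median 0.64, 24 of 26 above 0, 6 rises without IMSP replicate 2). That gene was Ltbp3, which holds latent TGF-beta in the matrix, at 9.01, 7.0 and 7.52 RPKM against 3.85, 3.55 and 2.84 RPKM. Its groups did not overlap (log2 fold change 1.18 ± 0.24, limma adjusted p = 0.00591), and it held without each library and without replicate 3 of both populations.

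The largest rises lay partly outside these pathways. Gabbr1, a subunit of the GABA-B receptor, was at 6.92, 8.84 and 7.29 RPKM in IMDP libraries and 2.59, 3.37 and 1.5 RPKM in IMSP libraries. No library overlapped (log2 fold change 1.65 ± 0.28, limma adjusted p = 0.00271), and the call held without each library and without replicate 3 of both populations. Lilrb4a, an inhibitory receptor of myeloid cells, was at 24.1, 10.2 and 5.07 RPKM against 0.947, 1.23 and 2.42 RPKM (log2 fold change 2.84 ± 0.65, limma adjusted p = 0.0105), with the rise smallest in pair 3. The call ended with limma-voom and without IMSP replicate 1 (limma adjusted p = 0.0528), and its copy Lilr4b can share its reads. S100a6, a calcium-binding protein, was at 4.84, 8.51 and 5.01 RPKM against 1.27, 3.18 and 0.825 RPKM (log2 fold change 1.90, limma adjusted p = 0.0153), a call that ended without IMDP replicate 2 or IMSP replicates 1 or 3. Gimap6, a GTPase of a clustered family, was at 31.4, 23.6 and 16.1 RPKM against 7.91, 9.44 and 5.15 RPKM (log2 fold change 1.64, limma adjusted p = 0.0248), a call that ended without IMDP replicates 1 or 2 or IMSP replicates 1 or 3. Of the remaining lists, p53 targets had 2 rises and 1 fall among 24, FOXO targets 1 rise among 19, cytokine receptors 1 rise among 27, adhesion genes 1 rise among 29, BCL2 family genes 1 fall among 11 and CDK inhibitors 0 among 5. The called genes of these lists were Plk3 and Trp53inp1 (p53 targets, which rose), Gtse1 (which fell), Irs2, Il27ra, Vcam1 and Bak1. Without replicate 3 of both populations the calls of Plk3 and Gtse1 held and those of the other 5 ended. Gtse1 also held without each single library. The call of Plk3 ended with the imatinib libraries alone and without IMDP replicates 2 or 3 or IMSP replicate 1. Of the p53 targets 0 to 5 rose when single libraries were left out.

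Of 20 listed macrophage markers 10 were tested, of which 4 rose and 0 fell, with a scaled median of 1.86 (1.38 under vehicle). Axl, C1qc and Hmox1 reached the 1 RPKM filter only in G0M+ libraries (IMDP and DP), where they were high. This share and median therefore lean upward, and the calls of these genes are not independent of the filter. The key marker Adgre1 did not pass (limma adjusted p = 0.27). It was at 2.83, 0.881 and 1.21 RPKM in IMDP libraries and 0.746, 0.161 and 1.45 RPKM in IMSP libraries, which overlapped. Hmox1, the haem oxygenase of iron-recycling macrophages, was at 1.82, 2.82 and 2.47 RPKM in IMDP libraries and 0.181, 0.167 and 0.329 RPKM in IMSP libraries (log2 fold change 2.93 ± 0.59, limma adjusted p = 0.00617), and held without each library and without replicate 3 of both populations, but not with limma-voom. C1qc, a complement C1q chain that marks tissue macrophages, had 22, 25 and 20 reads in IMDP libraries and 0 in all IMSP libraries. Its difference passed (limma adjusted p = 0.00829), but the call ended without replicate 3 of both populations (limma adjusted p = 0.0514). Under vehicle C1qc was at 1.65, 0.342 and 0.542 RPKM in DP and 0 in all SP libraries. It entered the test only through G0M+ libraries, where it was high, so its p-value is not independent support. The untested markers C1qa, C1qb, Cd5l, Fcna, Mertk and Spic had 4 to 79 reads in every IMDP library and 0 in every IMSP library, while Marco and Timd4 were at 0 in all libraries. Summed RPKM of the 20 markers was 47.12, 38.07 and 53.08 in IMDP libraries and 30.89, 19.68 and 58.88 in IMSP libraries, which overlapped. Csf1r, a receptor that monocytes also express and the largest part of the highest sum, was at 28.7 RPKM in IMSP replicate 3 and at 3.48 to 9.43 RPKM in the other imatinib libraries (chosen after its values were seen). The list count was 2 with limma-voom, 2 without IMDP replicate 2 or IMSP replicate 1, 3 without IMSP replicate 3 and 1 without replicate 3 of both populations. The part of macrophage RNA in the rises of Vcam1 and other genes was not tested.

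Markers of other cell types varied between IMDP libraries, and some were high in only 1 of them. Mast cell and basophil markers had a scaled median of 1.71, with 13 of 14 tested genes above 0 and pair medians of 3.57, 2.34 and 0.29. Some of them, such as Prss34 and Cma1, reached the 1 RPKM filter only in G0M+ libraries (IMDP and DP), where they were high. This median and tally therefore lean upward, and the call of Prss34 is not independent of the filter. The list had 1 rise (4 with the block or without IMDP replicate 3), Prss34, a mast cell and basophil protease. It was at 35.5, 13.1 and 0 RPKM in IMDP libraries and 0 in all IMSP libraries. Its call ended with limma-voom and without any library but IMDP replicate 3. Summed mast cell markers were 323.38, 136.98 and 105.79 RPKM in IMDP against 120.57, 93.32 and 91.46 RPKM in IMSP libraries, which overlapped. Erythroid markers had 1 rise among 14, Hbb-bt, a globin of a multigene family, and their sums overlapped, as IMDP replicate 1 was at 601.44 RPKM and the other imatinib libraries at 85.89 to 216.29 RPKM. The calls of Hbb-bt and of Tcf7, the 1 rise among 8 lymphoid markers, ended without replicate 3 of both populations. The call of Hbb-bt also ended without any single library but IMSP replicate 2, and that of Tcf7 without IMDP replicates 1 or 3 or IMSP replicates 1 or 2. Megakaryocyte markers had a scaled median of 0.86 (above 0 in each pair), with 12 of 15 above 0 and 0 called (limma, 1 rise with the block, 2 without IMSP replicate 2). Some signals came from 1 library, chosen here after their values were seen. Cma1, a mast cell chymase, had 361 reads in IMDP replicate 1 and at most 4 in the other imatinib libraries. Ppbp, a platelet chemokine, had 644 reads in IMDP replicate 2 and at most 8 in the others. Hbb-bs, a beta globin, had 1295 reads in IMDP replicate 1 and at most 151 in the others. Of 4 dendritic cell markers 0 were called in both scalings with limma (scaled median 0.06). The part of these cells' RNA in the rises was not tested.

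**Figure D4:**
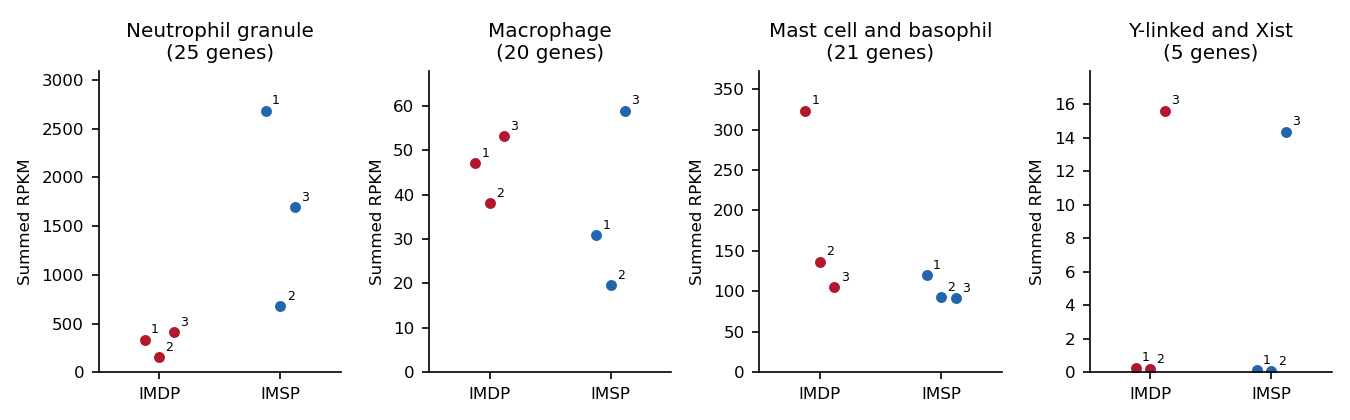
Summed RPKM of neutrophil, macrophage, mast cell and sex-linked genes in each imatinib library, numbered by replicate, on linear axes. Neutrophil markers sum to 153 to 411 RPKM in the IMDP libraries and to 678 to 2685 RPKM in the IMSP libraries, the macrophage and mast cell sums overlap, and Y-linked RNA stands out in replicate 3 of both populations.

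The vehicle libraries are separate samples and give the same contrast without the drug. There, 29 genes (0.288%) were higher and 198 (1.97%) lower in DP than in SP cells in both scalings. Of the 239 genes that rose under imatinib, 235 (98.3%) were also above 0 under vehicle after scaling, against 53.1% of all genes, and 18 were called. Of the 940 that fell, 917 (97.6%) were also below 0, against 46.9% of all genes, and 195 were called. Of the 227 vehicle calls 213 (93.8%) were also called under imatinib. Fold changes of the 2 contrasts had a Pearson correlation of 0.84 across genes, which are not independent replicates. A difference between the 2 contrasts was not called for any gene (limma, 0 genes, 937 at an unadjusted p under 0.05, and after scaling 0 and 405). With the replicate block 0 were called and 1281 had an unadjusted p under 0.05, and without IMDP replicate 2 it was 1 gene, Hist1h2bl, chosen after its values were seen. The larger number of calls under imatinib therefore does not show a larger difference there.

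**Figure D5:**
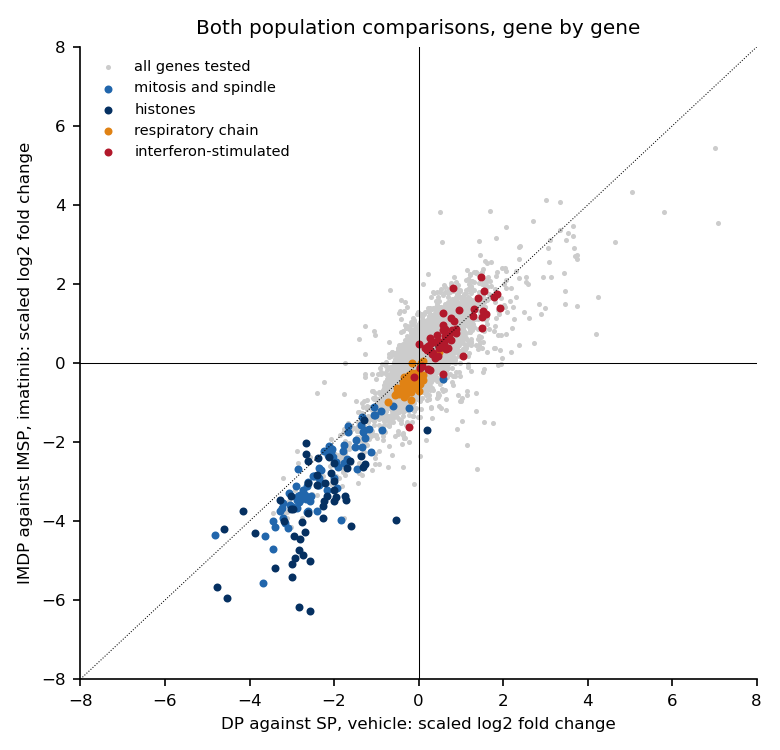
Scaled log2 fold change of IMDP against IMSP (imatinib, vertical axis) and of DP against SP (vehicle, horizontal axis), 1 point per tested gene, with 4 gene lists coloured and a dotted line where both are equal. Mitosis and histone genes lie far below 0 on both axes and interferon-stimulated genes mostly above 0 on both.

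By composition, 179 of the 940 genes that fell (19%) belonged to the cell cycle lists. Of the 635 that fell by under 2-fold, 36 were in those lists. Of the 239 genes that rose, 0 were in the cell cycle lists and 205 were in no list.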

How the data were processed

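RNA was sequenced from 100 sorted cells per library, made with not-so-random primers and a Nextera XT kit that does not mark strand, so antisense reads cannot be told apart. The deposited values are RPKM per feature, made by the authors from reads mapped to the mouse genome, without replicates pooled. Of 48737 features, 17735 were above 0, and whole reads were recovered within a tolerance of 0.02 for 17735. Numbered copies (4568 features of 1934 genes) were summed, giving 46103 genes. The 10072 genes that reached 1 RPKM in 3 or more of the 12 libraries were tested with limma 3.58.1 (R 4.3.3, trend) on log2(RPKM + 0.1) with 4 group means and Benjamini-Hochberg adjustment, as deposited and with libraries shifted to the same median. Tables and plots were made in Python 3.11.15. Fold changes understate those of low genes. Same-numbered IMDP and IMSP libraries deviated together from their group means (correlations 0.429, 0.655 and 0.457), so the numbers were used as a block in an alternative. Other alternatives were upper quartile scaling, a pseudocount of 1, other filters, copies kept apart, the imatinib libraries alone, leaving out libraries, and limma-voom on the recovered reads. Text genes were key genes of 38 lists, the 12 largest non-overlapping changes each way with a mean of at least 5 RPKM, the 3 smallest adjusted p of each list and the 5 smallest interaction p. The comparison and the lists were chosen with earlier results of these data known. RefSeq promoters matched 8171 of the 10072 genes. The scripts were tested on simulated data. Some genes and 1 list are not reported here.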

Additional observations from a re-analysis of the deposited data

Results flagged for a closer look

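Orc6, a subunit of the origin recognition complex, was at 6.32, 4.35 and 5.0 RPKM in IMDP libraries and 9.32, 10.3 and 8.97 RPKM in IMSP libraries, but higher in DP than in SP libraries (9.03, 9.74 and 9.32 against 7.91, 8.95 and 7.59 RPKM). It is listed because its libraries moved in opposite directions under imatinib and vehicle. The difference between the contrasts was -1.07 on the log2 scale (limma adjusted p = 0.534). Bst2, an interferon-induced tetherin, was at 13.9, 11.9 and 11.9 RPKM in IMDP libraries and 17.8, 16.9 and 17.0 RPKM in IMSP libraries, but at 23.9, 22.9 and 19.9 RPKM in DP and 18.1, 19.2 and 19.7 RPKM in SP libraries. It is listed for the same reason, with a difference of -0.68 on the log2 scale (limma adjusted p = 0.534). Neither difference passed adjustment over all genes.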

How the results depend on the processing

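Of the counts of genes called, 2581 became 1587 with median scaling, 1614 with upper quartile scaling, 1553 with the imatinib libraries alone, 1049 without replicate 3 of both populations (chosen after seeing the data) and 902 to 2962 when single libraries were left out. The 1179 called in both scalings became 753 with the imatinib libraries alone, 335 without replicate 3 of both populations and 442 to 1610 when single libraries were left out. The split of higher against lower calls was 239 to 2342 as deposited, 647 to 940 after median scaling and 978 to 636 after upper quartile scaling. With the replicate number as a block 2920 genes were called and 1378 in both scalings. Under vehicle 233 were called with the block, and 0 for the difference between contrasts. Of the genes described above, the block changed the call in both scalings for Procr, Ms4a3 and Ctla2b (the latter to an adjusted p of 0.0593 with limma), and it changed no other. On the count scale, limma-voom called 1090 genes in both scalings. Of the genes recomputed under each setting, the log2 fold changes of 5 turned, none of them called in both scalings, and the cause was not tested. With median scaling they were 0.11 for Cdkn1b, 0.23 for Sqle and 0.085 for H2-D1. With single libraries left out they ranged from -0.28 to 0.0145 for Cdkn1b (turned without IMSP replicate 2), from -0.14 to 0.14 for Sqle (turned without IMDP replicate 2, and at 0.0109 without IMSP replicate 1), from -0.76 to 0.28 for Cd48 and from -0.78 to 0.0871 for Myc (both turned without IMDP replicate 2). With 3 libraries of 100 cells a group, many calls depended on single libraries, both of changes under 2-fold such as Pcna and of larger ones such as Hp and Vcam1, and low genes rest on few reads.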
